A study of Mus musculus with 617 samples.

Results

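The messenger RNAs of the cytosolic ribosomal protein (RP) genes were followed in 617 single mouse cells. Members were the protein-coding genes of the GENCODE vM21 mouse annotation whose symbol is Rpl or Rps, digits and at most 1 letter, together with Rplp0, Rplp1, Rplp2 and Rpsa, and without pseudogenes. The rule found 80 genes among the 43628 gene identifiers of each deposited table, 49 named for the large and 31 for the small ribosomal subunit. They lay on 19 chromosomes, 4 of them on the X. Genes of ribosomal proteins with other symbols (7 in number, among them Rps3a1, Rpl22l1 and Rpl36al) fell outside the rule and are shown only for comparison.

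Each cytosolic ribosome holds a single copy of most of its proteins, so their genes are usually transcribed in a common proportion, and their messenger RNAs are among the most abundant of a growing cell. Most RP messenger RNAs begin with a C followed by a run of pyrimidines, the 5′ terminal oligopyrimidine (TOP) motif, through which the mTOR kinase and the RNA-binding protein Larp1 adjust their translation. A few members have a paralogue whose protein can take their place, and several such paralogues are best known from testis or muscle. Parent genes on the X chromosome often have an autosomal copy made by retroposition.

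The cultured cells derived from 1 female and 1 male embryonic stem (ES) cell line, both from a cross of a CAST/EiJ father with a C57BL/6J mother, and each line was sampled in 4 states. In 2i and LIF, the ground-state condition, 60 female and 51 male cells were measured, and in serum and LIF 68 and 52. Cells labelled Epi, kept with FGF2 and Activin A, were epiblast stem cells (79 and 63 cells), and a further 41 female Epi cells had gone through 7 passages. Cells labelled motor neuron (39 and 35 cells) came out of embryoid bodies treated with the smoothened agonist SAG and retinoic acid, a procedure that also yields interneurons. From embryos of the same cross came 23 cells of the inner cell mass at embryonic day 3.5 (E3.5) and, at E4.5, 23 cells of the epiblast, their sex not labelled. Embryos with 2 C57BL/6J parents gave 20 female and 63 male cells labelled epiblast at E5.5. A state was therefore represented by 2 cultures, in which line and sex are the same factor, and cells of a culture are not replicates. Values are FPKM, fragments scaled to transcript length and to the sequenced total, computed by the authors per gene and cell.

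Some groups carried RNA that their label does not name. The first female Epi culture held 72.5 FPKM of Zfp42, a marker of naive ES cells, and 14.1 FPKM of Fgf5, a marker of the primed state, whereas the male Epi culture held 0.0687 and 144.9 FPKM. The female Epi culture of 7 passages, with 0.117 and 120 FPKM, lay near the male one. By the mean log2(FPKM + 1) of 10 endoderm and 8 neuron genes, 13 of 39 female and 16 of 35 male cells labelled motor neuron carried more endoderm than neuron RNA. At E5.5, 15 of 20 female and 5 of 63 male cells carried more RNA of the endoderm or trophoblast lists than of the primed list. The mean over 6 trophoblast genes had a median over cells of 3.99 at E3.5 and 5.45 at E4.5, beside 6.22 and 5.24 for 6 pluripotent genes, and it was the higher of both in 1 of 23 cells at E3.5 and 12 of 23 at E4.5. All 6 trophoblast genes reached 1 FPKM in a cell at either stage. The part of such cells in the results below was not tested unless a value is given with and without these cells. The value of 1 fragment at a transcript of 1000 bases was read from the lowest values of processed pseudogenes. It had group medians between 0.150 FPKM at E3.5 and 1.06 FPKM in the female E5.5 cells, so levels below about 1 FPKM rest on very few fragments. Its highest value in a single cell was 20.2 FPKM at E3.5, 3.44 in the first female Epi culture and 3.32 in the female motor neuron culture. A threshold of 1 FPKM therefore does not stand for the same number of fragments in every cell or group. Cells of a group had medians of 8122 (E3.5) to 10840 (female E5.5) genes that reached 1 FPKM.

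The sequence around the transcript start and the coding sequence of the paralogues are shown first. TOP motifs are known from many RP genes, and the differences between paralogues decide whether reads can be told apart. Of the 80 members, 60 were found by symbol in a RefSeq table of promoters (GRCm38.p6, 250 bases before to 50 after each annotated start). A C followed by at least 4 further C or T, on the transcribed strand and beginning within 5 bases of the start, was present for 28 of 60 members (46.7%) and for 21.2% of 27025 genes with an entry. The 300-base window held a median of 21 CG dinucleotides for members and 8 for all genes. Below are the 30 bases before and 10 after the start for 5 members, with a TOP run in capitals: the stalk protein gene Rplp2 (chr7:141447621-141447660, plus strand), Rpl13a (chr7:45128736-45128775, minus strand), the X-linked Rpl39 (chrX:37085213-37085252, minus strand) and the paralogue genes Rpl39l (chr16:10170198-10170237, plus strand) and Rpl10l (chr12:66284392-66284431, minus strand).
Rplp2: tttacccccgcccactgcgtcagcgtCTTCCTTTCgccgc
Rpl13a: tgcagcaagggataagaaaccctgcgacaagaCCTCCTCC
Rpl39: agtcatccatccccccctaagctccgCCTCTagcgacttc
Rpl39l: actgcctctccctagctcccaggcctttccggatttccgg
Rpl10l: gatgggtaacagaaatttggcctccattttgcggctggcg

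Rpl39 and Rpl39l have coding sequences of equal length that were identical at 85.3% of positions and differed at 23. Rps27 and Rps27l, with 255 bases each, differed at 61 positions (76.1% identical). In the sequences, taken from the GENCODE vM21 transcripts, capitals mark the positions at which the pair differs.
Rpl39: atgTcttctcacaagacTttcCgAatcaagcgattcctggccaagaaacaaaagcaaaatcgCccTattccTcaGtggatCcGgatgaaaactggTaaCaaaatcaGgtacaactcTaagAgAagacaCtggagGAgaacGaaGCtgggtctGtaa
Rpl39l: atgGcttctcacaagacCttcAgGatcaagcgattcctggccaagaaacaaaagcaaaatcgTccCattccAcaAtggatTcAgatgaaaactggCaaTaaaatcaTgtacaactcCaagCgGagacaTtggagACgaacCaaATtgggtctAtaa
Rps27: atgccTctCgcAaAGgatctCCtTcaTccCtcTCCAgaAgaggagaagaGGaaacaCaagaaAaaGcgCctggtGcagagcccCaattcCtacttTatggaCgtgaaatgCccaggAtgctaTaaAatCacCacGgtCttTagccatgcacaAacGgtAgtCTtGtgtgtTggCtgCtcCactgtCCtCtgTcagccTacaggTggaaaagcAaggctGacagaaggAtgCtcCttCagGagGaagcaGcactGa
Rps27l: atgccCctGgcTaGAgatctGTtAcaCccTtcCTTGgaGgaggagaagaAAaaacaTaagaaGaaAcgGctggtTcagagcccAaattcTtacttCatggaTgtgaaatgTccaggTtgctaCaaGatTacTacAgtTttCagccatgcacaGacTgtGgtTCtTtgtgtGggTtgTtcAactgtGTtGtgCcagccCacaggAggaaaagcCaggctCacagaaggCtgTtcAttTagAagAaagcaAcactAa
Of the 40-base words of their transcripts, 98.96% for Rpl39l and 73.7% for Rps27l occur in no other annotated gene. For Rpl10 and Rpl10l (645 bases each) the identity was 84.8%, with 98 differing positions.

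Levels per transcript length (FPKM) differed widely among the members, although most of the encoded proteins are built into ribosomes in equal number. Rpl13a, a large subunit protein gene that hosts small nucleolar RNAs in its introns, had the highest level in each of the 13 groups, from 3824 FPKM at E3.5 to 11724 FPKM in female E5.5 cells. Rps9, a small subunit protein gene, was among the 3 highest members in the ES and Epi cultures, and Rps27l in the motor neuron cultures. Together the 3 highest members took between 24.4% (female serum) and 33.4% (male motor neuron) of the summed RP FPKM of a group, and the 10 highest between 54.2% and 60.8%. At the other end lay Rps12 (3.14 FPKM as the mean of the 13 groups), Rpl17 (4.12), Rps27 (4.23) and Rpsa (7.57), the last encoding the protein also known as the laminin receptor. Rpl3l, at 0.733 FPKM, was lowest of all.

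The low levels went with sequence that a member shares with other annotated genes. For each member, the share of the 40-base words (40-mers) of its transcripts that occur in no other annotated gene was computed. It ranged from 1.31% for Rps27 to 100% for Rpl3l, with a median of 48.2%, and 34 of the 80 members had at least 1 other gene that held 50% or more of their 40-mers. In female 2i cells the 21 members below 25% had a median level of 38.9 FPKM, the 33 members between 25% and 60% had 265.5 FPKM, and the 26 members from 60% upwards had 796 FPKM. Across the 80 genes, which are not independent replicates, Spearman's rho between own sequence and level lay between 0.39 and 0.50 in the 13 groups. Rps27rt, a retrocopy of Rps27 annotated as protein-coding, was listed at 44.3 FPKM in female 2i cells where Rps27 itself had 6.18 FPKM. Copies, the genes that hold 50% or more of a member's 40-mers, also summed to more FPKM than the member for Rpl13, Rps13 and Rps6. For most other members with copies the sum was lower than the member. The copies of Rps12 summed to 0.526 FPKM beside its 3.18 FPKM, and those of Rpl10 to 0.909 beside 62.7 FPKM. Rpl17 and Rpsa were low with 54.9% and 55.1% of their 40-mers their own. For Rpl13a the annotation holds 19 transcripts, some of them short, and a fragment assigned to a short transcript counts for more FPKM. Levels are therefore compared below for a gene between groups. Between genes they are set side by side only for paralogue pairs, in some of which a gene shares most of its sequence with other genes.

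**Figure D1:**
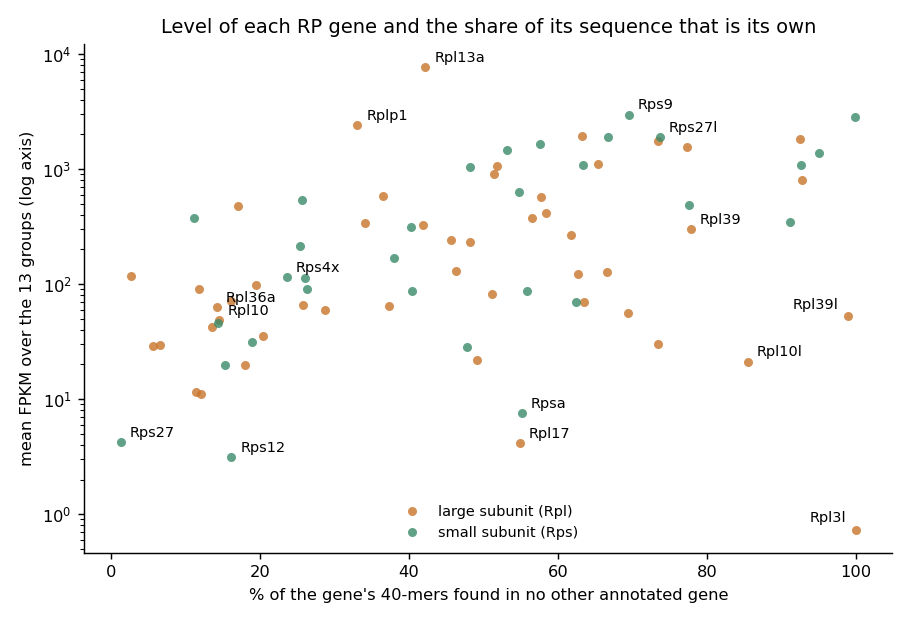
Each point is 1 of the 80 RP genes; the x axis gives the percentage of its 40-mers that no other annotated gene holds, and the log y axis its mean FPKM over the 13 groups. Rps27 and Rps12 lie low at the left (1.31% and 16.1% own sequence), and Rpl3l lowest of all at the right (100%).

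The order of the members was nearly the same in all groups. Over the 76 members other than Rpl3l, Rpl10l, Rpl39l and Rps27l, Spearman's rho of the levels was 0.995 between the female and the male 2i cultures and 0.974 between E3.5 and female E5.5 cells. The members were also measured in nearly every cell: in female 2i cells 71 of 80 reached 1 FPKM in each of the 60 cells, and 75 in at least 95% of them. In the motor neuron cultures 60 (female) and 65 (male) members reached 1 FPKM in at least 95% of cells. The coefficient of variation over cells, for members at 10 FPKM or more, had a median of 18.7% in female and 16.9% in male 2i cells, 29.2% and 25.1% in serum, and 40.9% and 40.96% in the motor neuron cultures.

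The share of a cell's FPKM sum taken by the 80 members was similar in the ES and Epi cultures and lower in the motor neuron cultures and at E3.5. It was 5.43% ± 0.677 (SD over cells) in female and 5.35% ± 0.618 in male 2i cells. In serum the share was 6.08% ± 0.940 and 5.82% ± 0.820, and in Epi cells 6.20% ± 1.08 and 6.70% ± 0.799. In the motor neuron cultures it was 3.02% ± 1.07 (female) and 2.43% ± 0.946 (male). The Epi culture of 7 passages had 5.75% ± 0.771. In embryos the share was 3.18% ± 1.01 at E3.5, 5.11% ± 1.88 at E4.5, 6.45% ± 0.746 in female and 6.56% ± 0.794 in male E5.5 cells. Both motor neuron cultures thus lay below each of the other 6 cultures of their table, with no overlap of culture means, and both serum cultures lay above both 2i cultures. As a sum over members chosen with results known, the share is given without a p-value.

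**Figure D2:**
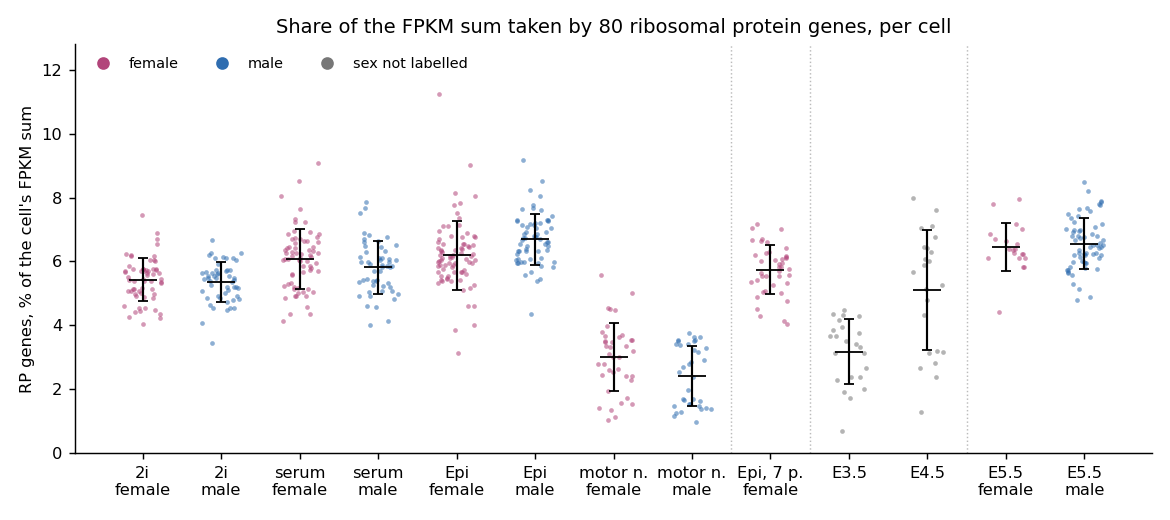
Each point is a cell; the y axis gives the percentage of the cell's FPKM sum taken by the 80 RP genes, bars the mean ± SD over cells, and dotted lines separate the 4 deposited tables. Means lie between 5.35% and 6.70% in the ES and Epi cultures and at 3.02% and 2.43% in the motor neuron cultures.

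The change from 2i to serum was 1.12-fold in the female and 1.09-fold in the male line (log2 0.16 and 0.12). The change from serum to Epi was 1.019-fold and 1.15-fold, and over protein-coding genes only it was 0.935-fold and 0.999-fold, so its direction rested on the denominator. From serum to motor neuron cells the share changed 0.496-fold in the female and 0.417-fold in the male line (log2 -1.01 and -1.26), and 0.521-fold and 0.370-fold over protein-coding genes. Within title-number runs, which split 7 of the 8 cultures into a lower and a higher block of numbers that the labels do not explain (female serum cells form a single block and enter both), the log2 change from serum to motor neuron was -1.07 in the lower and -1.16 in the higher block. The change from 2i to serum was 0.21 and 0.06 in these blocks. Gm42418, which overlaps ribosomal RNA sequence, differed between the blocks: in female 2i cells it had 45090 FPKM in the lower and 1353 FPKM in the higher one, beside RP shares of 5.02% and 5.83%. In male serum cells the order was the other way round, with 23667 FPKM in the lower and 71285 FPKM in the higher block beside shares of 5.401% and 5.95%. In male motor neuron cells 113447 and 27920 FPKM went with shares of 2.43% and 2.42%. Its part in the shares was not tested.

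The lower share in motor neuron cells came with a lower RP sum and a higher total. The summed FPKM of the members was 53244 and 54096 in female and male serum cells and 39792 and 32956 in motor neuron cells. The total FPKM per cell was 882814 and 939697 in serum and 1430260 and 1427070 in motor neuron cells. FPKM is a relative measure, so fewer RP transcripts per cell and more of other transcripts cannot be told apart. Among male cells, the 19 with more neuron than endoderm RNA had a share of 1.82% ± 0.822 and the 16 with more endoderm RNA 3.14% ± 0.466. In the female culture these values were 2.87% ± 1.21 (26 cells) and 3.31% ± 0.689 (13 cells). With cells of more neuron RNA only, the mean log2 change from serum was -1.38, and with cells of more endoderm RNA only it was -0.88. The lower share was thus present in both sets of cells. By the same scores serum cells also had more neuron than endoderm RNA, with medians of 1.53 and 0.12 (female) and 1.51 and 0.11 (male). More neuron than endoderm RNA therefore does not mark a cell as a neuron. In the motor neuron cultures the cells with more neuron RNA had mean neuron scores of 4.37 (female) and 8.45 (male). Their mean pluripotent scores were 2.98 and 0.698. In male cells 64 of 80 members were lower in cells of more neuron RNA, with a median log2 difference of -0.41, whereas in female cells 28 of 80 were lower and the median was 0.09.

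Per member, the comparisons of states were made with limma on log2(mean FPKM of a culture + 1), fitted over 15504 genes in 8 cultures, with Benjamini-Hochberg adjustment over all of them. Calls needed an adjusted p below 0.05 together with a log2 change of 1 or more, up or down. All 80 members passed the filter on low values, a mean over the cultures of at least 1 FPKM, Rpl3l narrowly so.

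From 2i to serum no member was called higher, against 0.00645% of all genes tested, and none lower, against 0.0129%. At an unadjusted p under 0.05 there were 2 of 80 members, Rps27a and Rpl11, beside 9.99% of all genes. The median change was 0.14 (log2) for members and 0.00 for all genes. Serum and 2i cultures did not overlap for 40 members that were higher in serum and 6 that were lower, beside 27.1% and 26.2% of all genes. Rpl11, whose protein binds Mdm2 together with Rpl5 and 5S ribosomal RNA, had 73.5 and 80.8 FPKM in female and male serum cells and 48.2 and 49.01 FPKM in 2i cells. Its log2 change was 0.65 ± 0.23 (SE; adjusted p = 0.393). Rps27a, which encodes ubiquitin fused to a small subunit protein, had 126.7 and 111.4 FPKM in serum and 80.3 and 78.3 FPKM in 2i cells (0.58 ± 0.19, adjusted p = 0.365). The highest value, that of Rpl39l, was 0.70 ± 1.43 and not called, made of 1.63 in the female and -0.22 in the male line. The lowest values, none called, were those of Rps27 (-0.74 ± 0.36), Rpl37a (-0.23 ± 0.19) and Rpl13a (-0.23 ± 0.21). Rpl13a turned to 0.04 without the female serum culture.

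From serum to Epi no member was called higher, against 0.0322% of all genes, and none lower, against 0.00645%. Only Rps29 had an unadjusted p under 0.05, beside 6.45% of all genes. The median change was -0.06 for members and 0.12 for all genes. Epi and serum cultures did not overlap for 8 members that were higher in Epi, beside 29.5% of all genes, and 29 that were lower, beside 11.9%. Rps29, which encodes a small zinc-binding protein of the small subunit, had 38.4 and 47.97 FPKM in female and male Epi cells and 73.9 and 70.6 FPKM in serum (log2 -0.74 ± 0.28, adjusted p = 0.727). Among the largest values upwards were those of Rps2 (0.36 ± 0.26) and Rpl5 (0.35 ± 0.29), both uncalled. The largest downwards were those of Rpl39l (-3.17 ± 1.43) and Rpl10l (-2.43 ± 1.69), described with the paralogues. The cells of 7 passages stand in another table, on a scale not shown to be common. When they replaced the first female Epi culture, these 2 of 79 tested members (2.53%) were called lower. That share was near the 2.55% of all genes. Rpl39l then changed by -5.36 ± 0.72 (adjusted p = 0.0155) and Rpl10l by -4.98 ± 0.85 (adjusted p = 0.0280).

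From serum to motor neuron cells 5 members fell and none was called higher. The background was 2.7% of all genes called lower and 30.1% called higher, and the median change was -0.71 for members and 0.71 for all genes. In size, 76 of 80 members were below 0, and 53 had an unadjusted p under 0.05, each of them lower, whereas 6.78% of all genes were lower at that threshold. The cultures did not overlap for 68 members that were lower in motor neuron cells, beside 15.9% of all genes, and for 1 that was higher, beside 54.8%. Rps13, a small subunit protein gene (chr7:116331505-116334195, mm10), had 54.1 ± 19.2 and 67.02 ± 23.5 FPKM (SD over cells) in female and male serum cells and 25.2 ± 13.5 and 21.2 ± 12.2 FPKM in motor neuron cells. It fell by 1.34 ± 0.24 (log2, SE; adjusted p = 0.00854). Rps27a (chr11:29545846-29548109) had 58.1 and 49.4 FPKM in motor neuron cells, under its 126.7 and 111.4 FPKM in serum, and fell by 1.14 ± 0.19 (adjusted p = 0.00749). Rps13 and Rps27a share much sequence with other genes (14.4% and 26.3% own 40-mers).

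The other called members included both acidic proteins of the ribosomal stalk, the flexible arm that recruits translation factors. Rplp1 had 2596 and 2854 FPKM in serum and 1592 and 1147 FPKM in motor neuron cells (log2 -1.01 ± 0.18, adjusted p = 0.00933). Rplp2 had 1390 and 1378 FPKM in serum and 779 and 612 FPKM in motor neuron cells (-1.002 ± 0.16, adjusted p = 0.00665). Rpl8, a large subunit protein gene, had 2156 and 2267 FPKM in serum and 1308 and 932 FPKM in motor neuron cells and changed by -1.001 ± 0.18 (adjusted p = 0.00913). These 3 lie just beyond the fold threshold, and Rplp0, the scaffold protein of the stalk, lay just inside it with -0.95 ± 0.20 (adjusted p = 0.0152). In each of these genes both motor neuron cultures were below both serum cultures. Rpsa (-0.88 ± 0.25), Rps6 (-0.79 ± 0.33), the member phosphorylated by S6 kinase, and Rpl11 (-0.72 ± 0.23) had smaller changes. None of them was called. The largest fall of all members, that of Rpl10l (-2.81 ± 1.69), was not called either. Rpl39l, also uncalled, had 61.8 and 26.04 FPKM in serum and 20.6 and 4.08 FPKM in motor neuron cells. Rpl15 (0.46 ± 0.31), Rps27l (0.44 ± 0.29) and Rpl5 (0.23 ± 0.29) had the highest values, none of them called, and all 3 were below 0 after each rescaling described next.

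The number of called members depended on the scale, since the deposited values shifted the median of all genes by 0.71. With each cell rescaled to the same protein-coding FPKM sum, 62 of 80 members were called lower, beside 6.83% of all genes. With each cell rescaled to a sum of 1000000 there were 61, beside 6.36%, and with upper-quartile scaling 69, beside 10.4%. Of all called genes, 91.8% were higher on the deposited scale, against 68.3%, 69.05% and 56.3% after these rescalings, which moved the median of all genes to 0.12, 0.14 and -0.01. The 5 members called on the deposited scale were also called in each rescaled fit, and no member was called higher in any of them. With the line as a replicate block the count was 8, beside 3.25%, the additions being the X-linked Rpl36a, Rpl39 and Rps4x. Fits without 1 serum or motor neuron culture leave 1 sample in a group. The 5 calls did not all hold without the female serum, the male serum or the male motor neuron culture, but did without the female motor neuron culture. Without the female and the male serum culture the median change was -0.69 and -0.71 for members and 0.67 and 0.76 for all genes. Without the female and the male motor neuron culture it was -0.87 and -0.51 for members and 0.75 and 0.58 for all genes. A fit of only the 4 cultures compared called 3 members lower, beside 2.06% of all genes, and kept Rps13 and Rps27a. Cells of the lower title numbers gave Rplp2 and Rps27a, beside 2.55%, and those of the higher ones 13 members, beside 2.92%. Leaving out cells with few genes gave 4, beside 2.64%, and kept Rplp1, Rps13 and Rps27a. With only cells of more neuron RNA 14 were called, beside 3.59%, and with only cells of more endoderm RNA 8, beside 5.75%, of which 3 were among the 5.

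**Figure D3:**
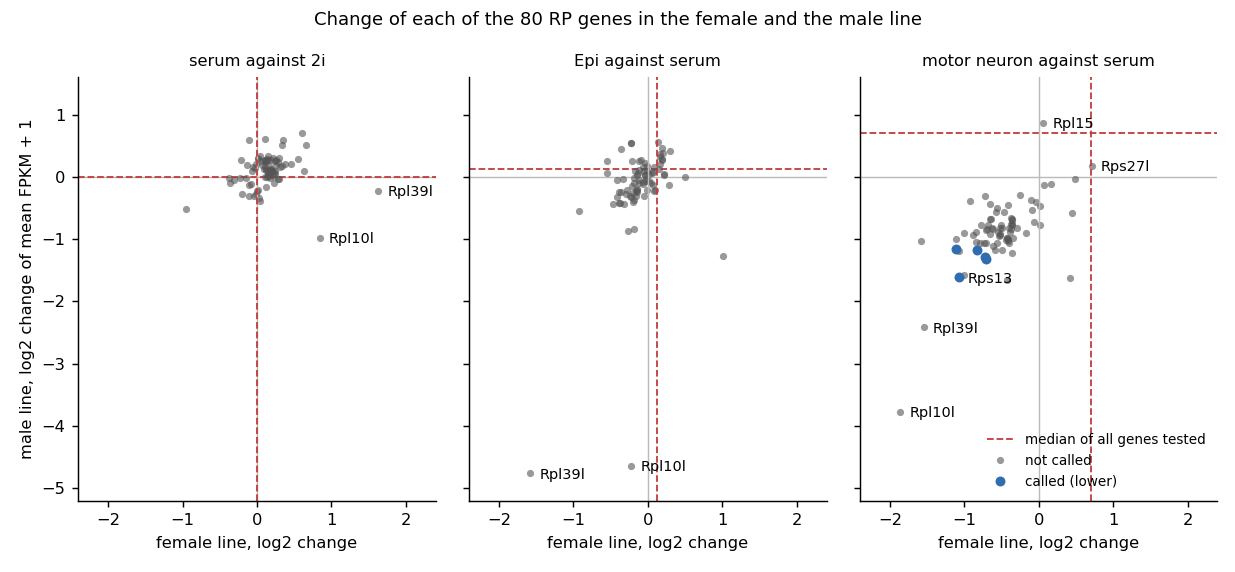
Each point is 1 of the 80 RP genes, placed by its log2 change of mean FPKM + 1 in the female (x) and male (y) line for the 3 comparisons of states; red dashed lines give the median of all genes tested, and blue marks the 5 called members. In the motor neuron panel 71 members are lower in both lines, while all genes have a median of 0.71.

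Genes with related functions were counted in the same fit, on lists chosen with earlier results known. Of the 7 RP genes outside the rule, none was called in any of the 3 comparisons. In motor neuron cells all 7 were below 0, with a median of -0.62, and after rescaling to the protein-coding sum 6 of the 7 were called lower. Of 35 ribosome biogenesis genes, 11 fell in motor neuron cells and none was called higher, with a median of -0.76, beside 2.70% of all genes called lower, 30.1% called higher and a median of 0.71. After the rescaling 25 of the 35 were called lower, beside 6.83% of all genes. Among them were Dkc1, a pseudouridine synthase of small nucleolar particles (-1.80 ± 0.22, adjusted p = 0.00373), and Polr1b, a subunit of RNA polymerase I (-1.43 ± 0.27, adjusted p = 0.0104). None of these 35 genes was called in the other 2 comparisons. Of 19 translation factor genes tested, none was called, and the median in motor neuron cells was -0.18. After the rescaling 4 of the 19 were called lower. Mitochondrial ribosomal protein genes, 77 in number, had a median of 0.15 in motor neuron cells with 4 called higher and none lower, both below the shares of all genes given above. After rescaling to the protein-coding sum their median was -0.46, with 6 called lower, beside -1.31 for the members and -1.32 for the biogenesis genes. Among 13 regulators, Trp53 fell (-1.63 ± 0.38, adjusted p = 0.0198) and Rps6kb2, an S6 kinase, rose (1.201 ± 0.35, adjusted p = 0.0396), the latter no longer called after that rescaling. Myc had a log2 value of 1.44 ± 0.36 from 2i to serum (adjusted p = 0.225).

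Rpl10l and Rpl39l, paralogues of X-linked genes, differed between groups far more in size than the other members. Rpl10l, an intronless autosomal copy of the X-linked Rpl10 (chr12:66283379-66284401, 85.5% of 40-mers its own), is best known from male germ cells. It was listed at 25.98 ± 20.004 FPKM (mean ± SD over cells) in female and 54.3 ± 39.2 in male 2i cells, and at 47.4 ± 50.1 and 27.2 ± 42.7 in serum. The first female Epi culture had 40.4 ± 54.1 FPKM, whereas the male Epi culture had 0.127 ± 0.492 and the female culture of 7 passages 0.214 ± 1.37. At 1 FPKM or more, it was found in 69 of 79 cells of the first female Epi culture (87.3%, exact Clopper-Pearson 95% interval 77.95% to 93.8%). In the male Epi culture this was so in 2 of 63 cells (3.17%, 0.387% to 11.0%), and in the culture of 7 passages in 1 of 41 (2.44%, 0.0617% to 12.9%). The intervals cover counting error only. The 2 Epi cultures with almost no Rpl10l are those with almost no Zfp42, and the culture with Rpl10l is the one with 72.5 FPKM of Zfp42. Whether cells of another state explain the female value was not tested.

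In motor neuron cells Rpl10l was listed at 12.3 ± 31.9 FPKM (female) and 1.07 ± 4.61 (male), with 10 of 39 and 2 of 35 cells at 1 FPKM or more. Among female cells the 26 with more neuron RNA had 17.1 FPKM and the 13 with more endoderm RNA 2.86 FPKM. In the male culture the 19 cells with more neuron RNA were all listed at 0. The mean log2 score of the 6 pluripotent genes was 2.98 in the female cells with more neuron RNA, 1.72 in those with more endoderm RNA and 0.698 in the male cells with more neuron RNA. The part of cells with pluripotent RNA was not tested.

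Rpl39l (chr16:10170226-10174911), the autosomal paralogue of the X-linked Rpl39 and likewise best known from testis, varied more between cells. Its level was 19.3 ± 20.1 and 30.6 ± 65.9 FPKM in female and male 2i cells, and 61.8 ± 124.9 and 26.04 ± 50.3 in serum. The median over cells was 13.1 and 14.9 FPKM in 2i but 3.05 and 0.669 FPKM in serum, so that the serum means rested on fewer cells with high values. In 2i cells 83.3% (female) and 88.2% (male) reached 1 FPKM, against 52.9% and 46.2% in serum. In Epi cells the first female culture had 20.04 ± 67.2 FPKM, with 26 of 79 cells at 1 FPKM or more, while all 63 male cells and all 41 cells of the culture of 7 passages were listed at 0. A count of 0 in 63 and 41 cells allows shares of up to 4.76% and 7.32% of cells when 3 cells are taken as the limit, and exact Clopper-Pearson upper bounds were 5.69% and 8.60%. These cover counting of cells, not transcripts missed within a cell. On the scale of the mean of log2 values the change from 2i to serum was -0.93, the reverse of that of the means.

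Rpl39l was high in the early embryo. At E3.5 it was listed at 288.1 ± 113.6 FPKM and in each of the 23 cells, between 146.9 and 542 FPKM, above Rpl39 itself at 98.8 FPKM. It took 74.5% of the summed FPKM of the pair at E3.5 and 49.5% at E4.5, where its level was 162.4 ± 151.3 FPKM. In E5.5 cells the level was 22.7 ± 25.2 (female) and 23.9 ± 23.5 FPKM (male), with 8.81% and 8.60% of the pair. In cultured cells Rpl39l took between 0% (male Epi and 7 passages) and 9.68% (female serum). The embryo cells stand in other tables than the cultures, on a scale not shown to be common, and the E5.5 embryos were of another cross, so these levels stand side by side without a test. Rpl10l took 59.97% of its pair with Rpl10 at E3.5, 42.9% at E4.5, and 6.59% and 6.35% in female and male E5.5 cells. In 2i cells it took 29.3% (female) and 61.3% (male), in serum 44.9% and 34.2%. Since 14.5% of the 40-mers of Rpl10 are its own, the level of Rpl10 and hence these percentages depend on how shared reads were assigned.

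**Figure D4:**
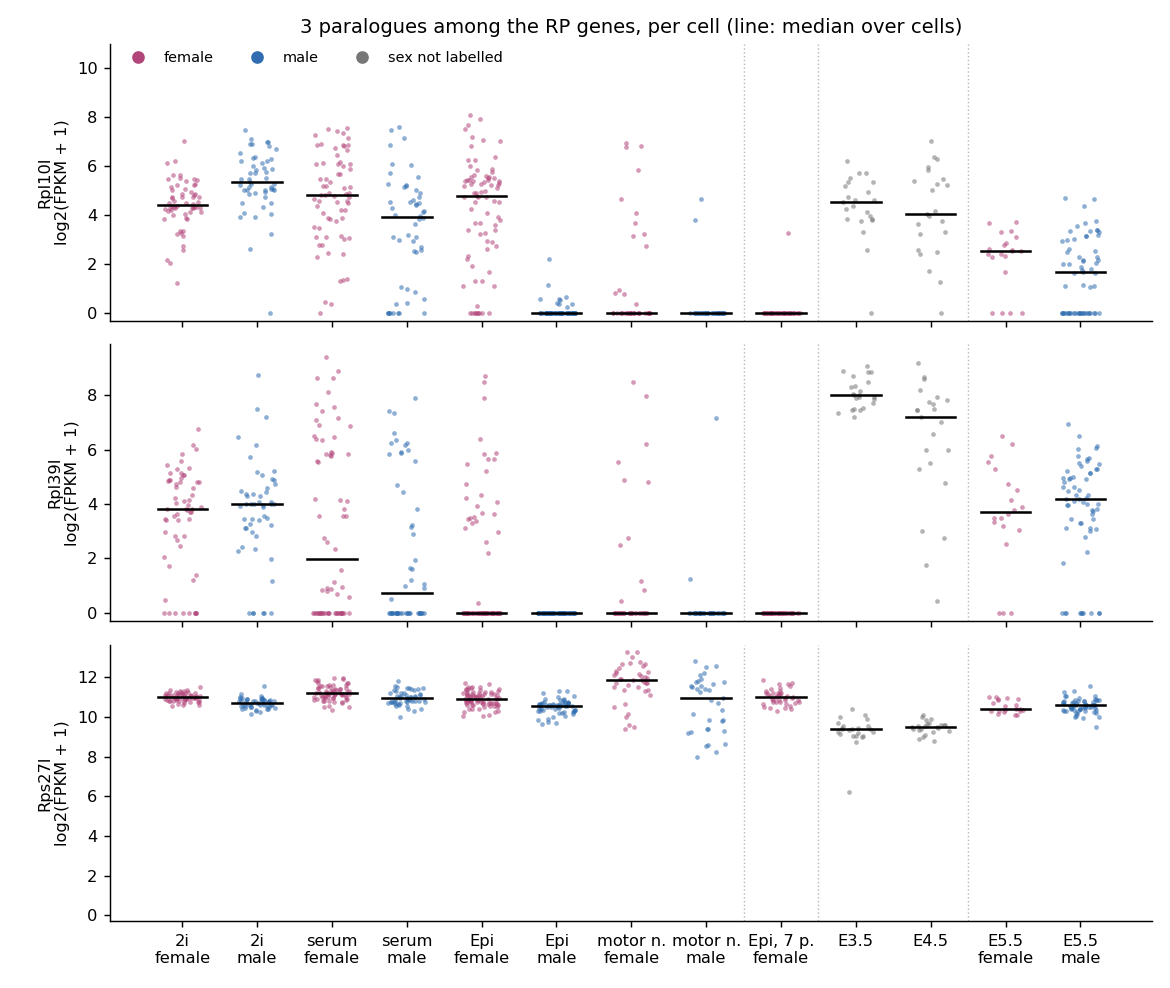
Each point is a cell; the y axes give log2(FPKM + 1) of Rpl10l, Rpl39l and Rps27l, the black line is the median over cells, and dotted lines separate the 4 tables. Rpl10l and Rpl39l lie at or near 0 in the male Epi cells and the cells of 7 passages, and Rpl39l is highest at E3.5 (median 255 FPKM), while Rps27l is high in every group.

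Within a group, Rpl10l and the naive marker Zfp42 were compared over cells as a description. Spearman's rho was 0.51 over the 52 male serum cells and 0.67 over the 23 E4.5 cells. It was 0.23 over 68 female serum cells, 0.13 over 79 cells of the first female Epi culture and 0.07 and 0.14 over the female and male 2i cells. At E3.5 it was -0.0079 over 23 cells, and at E5.5 -0.064 over 20 female and -0.039 over 63 male cells. At E4.5, Rpl10l had 53.8 FPKM in the 11 cells with at least as much pluripotent as trophoblast RNA and 9.39 FPKM in the other 12. These cells share a culture or embryos, and depth per cell was not held constant.

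Rps27l, which in other settings is a target of p53, was expressed in all 617 cells at 1 FPKM or more and was among the highest members. Its level was 2058 ± 291.9 and 1690 ± 311.9 FPKM in female and male 2i cells, 2454 ± 635 and 2042 ± 512 in serum, and 1970 ± 500 and 1505 ± 358 in Epi cells. In motor neuron cells it was 4029 ± 2302 and 2302 ± 1809 FPKM. Its share of the pair with Rps27 was 99.6% or more in each group, a value that rests on a partner with 1.31% own sequence. Male motor neuron cells with more neuron RNA had 1140 FPKM of Rps27l and those with more endoderm RNA 3683 FPKM. In the female culture these levels were 3571 and 4944 FPKM. Cells with more endoderm RNA thus had the higher mean level in both lines. Rpl3l, the paralogue of Rpl3 best known from heart and skeletal muscle, had its highest group mean, 3.10 FPKM, in the first female Epi culture, with single cells up to 20.5 FPKM there and 23.7 FPKM in male 2i, and was listed at 0 in all 35 male motor neuron cells.

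Paralogues outside the rule were followed beside their member. Rpl22l1 took 21.1% of the pair with Rpl22 in female and 38.8% in male Epi cells, and between 22.3% and 35.9% in the other groups. Rpl36al took between 76.9% and 88.9% of the pair with the X-linked Rpl36a. Own 40-mers made up 31.6% of Rpl22l1, 92.7% of Rpl22, 74.5% of Rpl36al and 14.2% of Rpl36a, so these percentages depend on how shared reads were assigned. Rps4l, annotated as a transcribed processed pseudogene of Rps4x, was listed at 819 and 1009 FPKM in female and male 2i cells and at 867 FPKM in the first female Epi culture. In male Epi cells it had 180 FPKM and in the culture of 7 passages 30.3 FPKM, so that the first female culture was the highest of the 3 Epi cultures, as for Rpl10l and Zfp42. Rps4x, with 23.6% own 40-mers, had 99.98 FPKM in the first female Epi culture, 193 FPKM in male Epi cells and 38.1 FPKM after 7 passages.

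The 4 X-linked members were compared between the female and the male line of each state. Female cells carry 2 X chromosomes, of which differentiating cells silence 1, whereas naive female ES cells can keep both active. Rpl39 (chrX:37082520-37085402) had 533 ± 124.1 FPKM in female and 294.7 ± 43.9 in male 2i cells, and 576 ± 230 and 354 ± 100 FPKM in serum. Its female-to-male log2 ratio was 0.85 in 2i, 0.70 in serum, 0.62 in Epi and 0.82 in motor neuron cells, and -0.11 at E5.5. The 76 autosomal members had medians of -0.05, 0.01, -0.03, 0.37 and -0.01 in these states. All tested X-linked genes had medians of 0.46, 0.39, 0.31, -0.15 and -0.02. Rpl39 was thus higher in the female line of every cultured state, and by more than the median X-linked gene, but not at E5.5. With 1 culture per sex and state, sex and line cannot be told apart, and no test was made.

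The other X-linked members did not share that pattern. Rpl36a (chrX:134585654-134588062) had ratios of 0.66 in 2i, 0.70 in serum, -0.11 in Epi, 0.59 in motor neuron cells and 0.04 at E5.5. Rpl10 (chrX:74270812-74273135) had 0.85 in 2i, 0.15 in serum, 0.21 in Epi, -0.38 in motor neuron cells and 0.24 at E5.5. Rps4x (chrX:102184941-102189394) was lower in the female line of each cultured state, with -0.59, -0.34, -0.94 and -0.89, and had -0.05 at E5.5. In 2i, Rpl10, Rpl36a and Rpl39 were each above all 76 autosomal members. In Epi and in motor neuron cells Rps4x was below all 76. Rpl10, Rpl36a and Rps4x share most of their 40-mers with other genes (14.5%, 14.2% and 23.6% own), and Rpl39 does not (77.8% own).

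**Figure D5:**
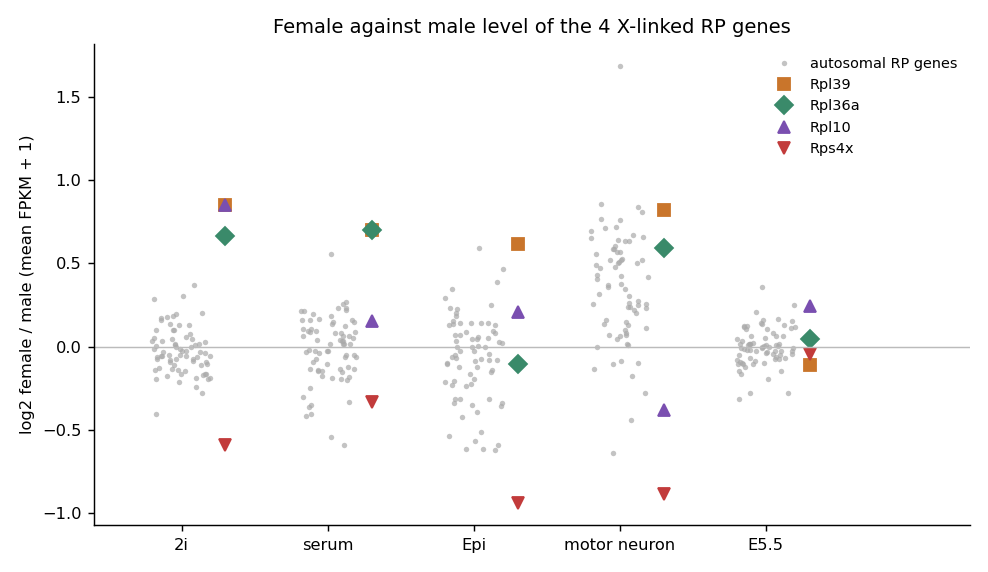
The y axis gives the log2 ratio of female to male mean FPKM + 1 per state; coloured symbols are the 4 X-linked RP genes and grey points the autosomal RP genes other than Rpl3l, Rpl10l and Rpl39l. Rpl39 lies between 0.62 and 0.85 in the cultured states and at -0.11 at E5.5, and Rps4x between -0.94 and -0.34 in the cultured states.

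Between E3.5 and E4.5 the share of the members was 1.61-fold higher (3.18% and 5.11%), and over protein-coding genes 1.32-fold. Among cells with at least as much pluripotent as trophoblast RNA, chosen after the data were seen, it was 1.49-fold (3.22% in 22 and 4.79% in 11 cells), and the other 12 cells at E4.5 had a share of 5.404%. Mitochondrial genes took 34.1% of the FPKM sum at E3.5 and 21.5% at E4.5. The leading numbers in the sample titles, whose meaning the labels do not give, had mean shares between 2.93% and 3.45% for 4 numbers at E3.5, and between 2.06% and 6.51% for 7 numbers at E4.5. The spread between these numbers at E4.5 was therefore wider than the difference between the stages. The lowest of these E4.5 means rested on 2 cells and the highest on 4 cells. Of 79 members at 1 FPKM or more, 5 were higher at E4.5 by a log2 of at least 1, beside 11.6% of all genes, and none was lower, beside 13.4%. The median was 0.35 for members and -0.08 for all genes, and 67 of 79 members were above 0. The 5 were Rpl10a (26.6 and 89.7 FPKM, log2 1.72), Rpl21 (1.56), Rpl10 (1.18), Rpl28 (1.15) and Rps13 (1.04). Their E4.5 means ± SD over cells were 89.7 ± 92.5, 24.8 ± 50.6, 40.8 ± 73.3, 50.7 ± 42.9 and 31.3 ± 11.7 FPKM. For Rpl10a, Rpl21 and Rpl10 the SD exceeded the mean, and whether few cells carried these changes was not tested. Among the lowest were Rpl39l (-0.82) and Rpl13 (-0.62). The E3.5 mean of Rpl13, 83.6 FPKM, had an SD of 140.8. At E4.5 Rpl39l had 268.4 FPKM in the 11 cells with at least as much pluripotent RNA and 65.3 FPKM in the 12 with more trophoblast RNA, beside 294.55 FPKM in the 22 such pluripotent cells at E3.5. With 1 group per stage there was no test. Between female and male E5.5 cells none of 79 members differed by a log2 of 1, beside 5.97% of genes higher and 4.78% lower in female cells. At E5.5 the share was 6.25% in the 15 female cells with most RNA of the endoderm or trophoblast lists and 7.05% in the other 5.

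Over cells of a group the members moved together to different degrees. For members at 1 FPKM or more in at least 95% of cells, without Rpl3l, Rpl10l, Rpl39l and Rps27l, the median of all pairwise Spearman correlations was 0.26 (female, 73 members) and 0.25 (male) in 2i cells, 0.25 and 0.24 in serum, and 0.17 and 0.13 in Epi cells. It was 0.55 (59 members) and 0.52 (64 members) in motor neuron cells, 0.51 at E3.5, 0.52 at E4.5 and 0.26 in both E5.5 groups. Between members and mitochondrial ribosomal protein genes the median was 0.24 and 0.16 in 2i, 0.02 and 0.09 in serum, 0.20 and 0.19 in motor neuron cells, and 0.45 and 0.43 at E3.5 and E4.5. Cells of a group share their culture or embryos and differ in depth, so these are descriptions of the cells.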

How the data were processed

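SMART-seq2 libraries of 617 single cells were read as the authors' deposited FPKM values in 4 tables, made with STAR 2.4.1, Cufflinks and Cuffnorm 2.2.1 on mm10 per the submitters' processing notes. The annotation and the handling of reads that match several genes are not given in the sources used here. Of 43628 gene identifiers, 42548 matched GENCODE vM21, of the same genome build. No test crossed the 4 tables, whose common scale is not given in the sources used here. Depth is given only as the apparent value of 1 fragment, the lower 10% point of the values of processed pseudogenes.

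FPKM were averaged over the cells of a culture. Genes averaging 1 FPKM or more over the cultures were tested as log2(mean FPKM + 1) with limma 3.58.1 (R 4.3.3; lmFit and eBayes with a trend) in 1 fit of 8 cultures with 4 residual degrees of freedom and Benjamini-Hochberg adjustment. Fold changes on this scale understate those of low genes. Nothing in the labels says that a line was cultured more than once per state, so p-values measure the spread between the 2 lines. The same line was used in each state, which pairs the cultures; over 15504 genes, Pearson's r between the line differences of any 2 states was 0.06 to 0.16. The fit was tested on simulated data. Alternatives covered pseudocount, filter, scaling, cell sets, the replicate block and each culture left out.

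Some genes within the naming rule are not reported here. Members and lists were chosen with earlier results of these data known. Named were the paralogue, X-linked and stalk genes, members of particular roles, the 3 highest and 3 lowest levels per group, and per comparison the 3 largest called changes or, with none called, the 3 largest and smallest values. Rpl8 (to complete the called members), Rps27rt and the genes named between embryo stages were picked out after their values were seen. So were the members set beside the sum of their copies. Python 3.11.15 with numpy 2.4.6, pandas 2.3.3, scipy 1.17.1 and matplotlib 3.10.9 served for the remaining steps.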

Additional observations from a re-analysis of the deposited data

Results flagged for a closer look

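Among the members named by their change, 2 had values of opposite sign in the lines, and the difference between the lines was not tested, since each line had 1 culture per state. From 2i to serum Rpl39l had a log2 value of 1.63 in the female and -0.22 in the male line. From serum to motor neuron cells Rpl5 had 0.48 in the female and -0.027 in the male line. Of all 80 members, 60 had the same sign in both lines from 2i to serum, 53 from serum to Epi and 73 from serum to motor neuron cells.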

How the results depend on the processing

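No member was called higher, and none was called from 2i to serum, under any alternative run. From serum to Epi, 2 of 79 members (2.53%) were called lower when the cells of 7 passages, from another table, stood for the female Epi culture. The share of all genes was 2.55%, and no member was called lower otherwise. From serum to motor neuron cells the count of 5 lower members became 16 with log2 values averaged over cells, 61, 69 and 62 with scaling to the cell sum, the upper quartile and the protein-coding sum, 34 without a fold threshold, 3 with only the 4 cultures compared, 2 and 13 with the lower and higher title numbers, 2 to 18 with 1 culture left out, and, as alternatives chosen after seeing the data, 14 and 8 with cells of more neuron or endoderm RNA. With the paired cultures as a replicate block it was 8, and the block changed no other count. These counts move with the share of all genes called lower. That share was 5.51% with log2 values averaged over cells and 3.70% without a fold threshold, beside 2.70% in the main fit. Fits with 1 culture left out can leave 1 sample in a group, so their counts are not set against all genes. For the other counts listed the share is given in the Results. The log2 share change from 2i to serum was 0.056 over genes of at least 200 exon bases, 0.21 and 0.064 with the lower and higher title numbers, 0.19 without Rpl13a, 0.19 with members of at least 50% own 40-mers (both chosen after seeing the data), and 0.12 to 0.16 with 1 line left out. From serum to Epi it was -0.049 over protein-coding genes, -0.054 over long ones without mitochondrial genes, and 0.03 to 0.20 with 1 line left out. From serum to motor neuron cells it was -1.38 and -0.88 with cells of more neuron or endoderm RNA, and -1.26 to -1.01 with 1 line left out.

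Of the alternative values of 20 named changes, 451 kept direction and side of the threshold, 4 became called, 8 lost the call and 16 turned direction. Turned were Rpl39l from 2i to serum (-0.93, log2 values averaged), Rpl13a (0.043, without the female serum culture) and Rpl10l from serum to Epi (0.17, without the male Epi culture). In motor neuron cells, with the cell sum, upper quartile and protein-coding sum, Rpl15 turned to -0.18, -0.38 and -0.20, Rps27l to -0.13, -0.42 and -0.18, and Rpl5 to -0.43, -0.60 and -0.40. Rpl15 turned to -0.10 with cells of more endoderm RNA, Rps27l to -0.15 with cells of more neuron RNA, and Rpl5 to -0.22 with averaged log2 values and -0.013 with the lower title numbers. Apart from the construction of each alternative, the cause was not tested.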
